A study of Danio rerio with 6 samples.

Results

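Vertebrate photoreceptors turn light into an electrical signal through a short enzyme cascade that starts at the opsin. The 10 zebrafish genes described here encode proteins that act directly downstream of it: 3 used by rods (gnat1, pde6b and saga) and 7 used by cones (gnat2, gnb3b, pde6c, pde6h, arr3a, arr3b and grk7a). They were chosen by name for their place in the cascade, with earlier results of these data known. They are 10 of the 36191 gene IDs in the RNA sequencing tables of this study. The 6 libraries carry the tissue label liver and come from wild-type fish of the AB strain at 3 months of age. Of these, 3 came from fish treated with graphene oxide (GO) and 3 from control fish (CK), numbered 1 to 3 in each group. The labels state neither a dose nor an exposure time, and GO and CK fish shared strain, genotype and age as labelled. The labels do not say whether a replicate was 1 fish or a pool, so p-values here cover library-to-library spread, part or all of which may be technical.

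In the cascade, light-activated opsin switches on the G protein transducin, whose alpha subunit releases the catalytic subunits of phosphodiesterase 6 from their inhibitory gamma subunit. The phosphodiesterase lowers cyclic GMP, and cyclic GMP-gated channels close. An opsin kinase and an arrestin then shut the opsin off. Rods, which work in dim light, and cones, which work in bright light and detect colour, use separate genes for most of these steps. In fish, photoreceptors of the pineal organ use a related cascade. The genes are used as markers of photoreceptors rather than of liver.

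The libraries held between 9739760 and 12998273 expected counts. In every library the labelled tissue was checked against 20 hepatocyte genes, which summed to 505 to 525 CPM (library-scaled counts, each library set to 1000000 counts with TMM factors) in GO replicates 1 and 2, 1079 to 1089 CPM in CK replicates 1 and 2, and 10205 and 9797 CPM in GO and CK replicate 3. The 4 highest of these genes in mean CPM were apoa1b, apoa2, rbp4 and tfa. In the 4 libraries of replicates 1 and 2 they were at 63.0 to 230, 41.5 to 197, 334 to 479 and 20.7 to 76.0 CPM. In the same libraries fabp10a, a defining hepatocyte gene, was at 1.0 to 1.6 CPM and hp at 0.0 to 0.2 CPM. Summed, 16 skeletal muscle genes were at 87901 to 101186 CPM there, and at 67625 and 66013 CPM in GO and CK replicate 3. In every library the hepatocyte sum lay far below the muscle sum. This goes against the liver label, most of all in replicates 1 and 2, and the values below are not read as liver expression. Which tissues the libraries hold was not tested. Replicate 3 stood apart from replicates 1 and 2 in both groups. Spearman's rho across genes was 0.869 to 0.889 between a replicate 3 library and any replicate 1 or 2 library. Among the libraries of replicates 1 and 2 it was 0.979 to 0.994. For the cascade genes GO and CK were therefore compared both with and without replicate 3. In bulk libraries such as these, fewer photoreceptor cells in the sample and less RNA per photoreceptor cell cannot be told apart.

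All 10 genes were detected in all 6 libraries, and all 10 passed the filter of a mean FPKM of at least 1. The lowest value was 114 expected counts, for pde6h in GO replicate 3. Together they held 0.178%, 0.177% and 0.142% of all counts in GO libraries 1, 2 and 3, against 0.227%, 0.221% and 0.158% in CK libraries 1, 2 and 3. The 95% Wilson interval of each share, which covers counting error only, was no wider than 0.224% to 0.230% (CK replicate 1). Within each replicate number the GO share lay below the CK share, and in each group replicate 3 had the lowest share.

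Levels of different genes were compared on TPM, which is scaled by length. The cone transducin beta gene gnb3b (gene ID 406483) had the highest mean TPM over the 6 libraries, at 342, with a range of 274 to 408. Next came the cone arrestin gene arr3a (436678) with a mean of 251 TPM, the cone transducin alpha gene gnat2 (140429) with 244 TPM, and the second cone arrestin gene arr3b (796867) with 121 TPM. The cone phosphodiesterase genes followed, with means of 101 TPM for the inhibitory subunit gene pde6h (393758) and 64.2 TPM for the catalytic subunit gene pde6c (393845). The rod transducin alpha gene gnat1 (140428) averaged 41.5 TPM and the cone opsin kinase gene grk7a (566120) 34.9 TPM. The rod arrestin gene saga (792319), at 14.4 TPM, and the rod phosphodiesterase beta gene pde6b (559332), at 3.61 TPM, were the lowest. The ranges over the 6 libraries overlapped between all neighbours in this order except gnat2 and arr3b, grk7a and saga, and saga and pde6b. Compared within libraries, pde6h lay above pde6c in each of the 6. The gene gnb3b lay above arr3a, and pde6c above gnat1, in 5 of the 6. In 4 of the 6, arr3a lay above gnat2, arr3b above pde6h and gnat1 above grk7a.

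Cone genes made up nearly all of the summed TPM of the 10 genes, but 7 of the 10 are cone genes. Of these, gnb3b, pde6h and grk7a have no rod counterpart among the 10, so the share depends on which genes were listed. For the opsins, which are not among the 10, the TPM ratio of cone opsins to rho was 4.71, 4.59 and 4.81 in GO libraries 1, 2 and 3. In CK libraries 1, 2 and 3 it was 5.04, 4.71 and 6.40. The 3 rod genes held 5.01%, 4.70% and 5.56% of the summed TPM of the 10 genes in GO libraries 1, 2 and 3, against 4.26%, 4.72% and 5.44% in CK libraries 1, 2 and 3. These ranges overlapped between the groups, and replicate 3 was highest in both. For transducin, the ratio of cone gnat2 to rod gnat1 in TPM was 5.36, 5.84 and 5.07 in GO, against 6.61, 6.14 and 6.15 in CK, which did not overlap. The nearest values of the groups, 5.84 and 6.14, were close. How often the ratios of other gene pairs separate the groups was not tested. For phosphodiesterase, the ratio of cone pde6c to rod pde6b was 18.5, 18.7 and 10.01 in GO, against 22.9, 22.4 and 13.7 in CK. Here GO lay below CK within every replicate number, but the difference between replicate 3 and the others was larger. For arrestin, the ratio of cone arr3a plus arr3b to rod saga went the other way in pairs 2 and 3, at 27.3, 28.2 and 29.3 in GO, against 28.9, 25.1 and 16.1 in CK, and the groups overlapped. The ratio of gnat2 to gnb3b, which encode 2 subunits of the same cone G protein, stayed between 0.675 and 0.765 in all 6 libraries.

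**Figure D1:**
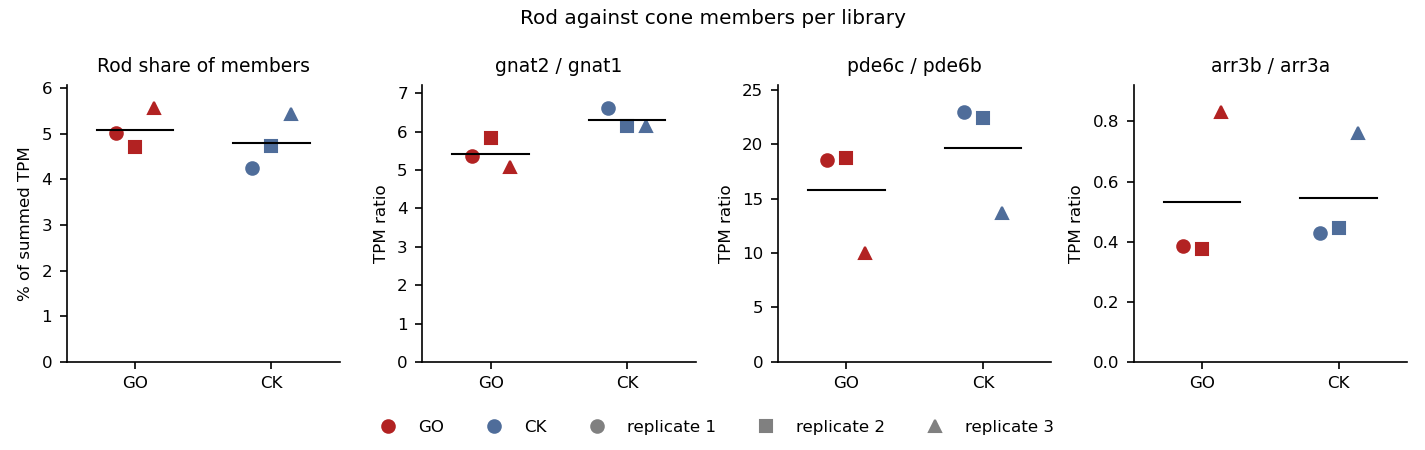
Rod share of the summed TPM of the 10 genes in percent, and 3 TPM ratios (gnat2 over gnat1, pde6c over pde6b, arr3b over arr3a), each axis starting at 0, with 1 point per library, GO left and CK right, marker shape for the replicate number, and a line at the group mean. The gnat2 over gnat1 ratio is 5.07 to 5.84 in GO and 6.14 to 6.61 in CK, while the other ratios split by replicate 3 more than by group.

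GO and CK were first compared in replicates 1 and 2 (2 libraries a group). Of the 10 genes, 8 were lower in GO at an adjusted p under 0.05 and none was higher, by edgeR's quasi-likelihood test with Benjamini-Hochberg adjustment over 19289 genes. Of all genes tested, 24.9% were called, 12.0% as lower and 12.9% as higher. The median log2 fold change was -0.34 over the 10 genes, -0.22 over the 3 rod genes and -0.47 over the 7 cone genes, against 0.00 over all genes. All adjusted p-values below come from this test, and ± after a log2 fold change is its standard error. The common dispersion was 0.00072 in the fit of replicates 1 and 2, against 0.17 in the fit of all 6 libraries. The p-values and standard errors from replicates 1 and 2 thus rest on the small spread between these libraries. They do not cover the spread seen with replicate 3.

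The strongest differences were in the cone genes of the transducin and phosphodiesterase step. The transducin alpha gene gnat2 was at 345 and 343 CPM in GO libraries 1 and 2, against 511 and 504 CPM in CK libraries 1 and 2. The groups stood clear of each other, with GO lower by 0.56 ± 0.03 on the log2 scale, a fall of 32.1% (adjusted p = 2.2e-54). The beta subunit gene gnb3b was likewise lower, at 426 and 419 CPM in GO, against 623 and 571 CPM in CK, a log2 fold change of -0.50 ± 0.03 (adjusted p = 4.1e-49). For the catalytic subunit gene pde6c, values of 243 and 254 CPM in GO, against 345 and 344 CPM in CK, gave -0.47 ± 0.03 (adjusted p = 6.3e-34).

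The gene with the largest fall was pde6h, which encodes the inhibitor that holds cone phosphodiesterase in check. It was at 13.5 and 13.8 CPM in GO libraries 1 and 2, against 30.0 and 29.6 CPM in CK libraries 1 and 2. The log2 fold change was -1.12 ± 0.12, a fall of 54.0% (edgeR adjusted p = 2.2e-17). The counts of pde6h were not whole numbers, unlike those of the other genes, and whether reads shared with another gene were divided was not tested. This gene is also the shortest of the 10 by far. Its effective length, worked out from counts and length-normalized values, was 201 bases, while that of the others lay between 1414 and 5327 bases. Over the 915 tested genes with an effective length under 500 bases, the median log2 fold change in the same comparison was -0.27, and 33.2% of them were called lower. The fall of pde6h exceeded that median by 0.85 on the log2 scale, and the part of transcript length in it was not tested.

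The shut-off genes differed less between the groups. The cone arrestin gene arr3b was at 144 and 142 CPM in GO, against 176 and 178 CPM in CK, a log2 fold change of -0.31 ± 0.04 (edgeR adjusted p = 2.0e-10). The other cone arrestin gene, arr3a, was only slightly lower, at 377 and 384 CPM in GO, against 415 and 405 CPM in CK (log2 fold change -0.10 ± 0.03, edgeR adjusted p = 0.0036). The opsin kinase gene grk7a was at 102 and 93.7 CPM in GO, against 105 and 99.9 CPM in CK. Its groups overlapped, and its log2 fold change of -0.07 ± 0.05 did not pass the test (edgeR adjusted p = 0.39). In zebrafish, arr3a is known from long- and middle-wavelength cones and arr3b from short-wavelength and ultraviolet cones.

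Among the rod genes, gnat1 was at 56.9 and 51.8 CPM in GO libraries 1 and 2, against 68.1 and 72.4 CPM in CK libraries 1 and 2, a log2 fold change of -0.38 ± 0.07 (edgeR adjusted p = 8.5e-07). The rod arrestin gene saga was at 40.4 and 39.5 CPM in GO, against 43.3 and 49.3 CPM in CK, and passed narrowly with -0.22 ± 0.08 (edgeR adjusted p = 0.029). The rod phosphodiesterase gene pde6b was at 16.5 and 17.1 CPM in GO, against 18.9 and 19.2 CPM in CK, and did not pass with -0.18 ± 0.13 (edgeR adjusted p = 0.30). GO lay below CK without overlap in 9 of the 10 genes, grk7a being the exception, as in 30.1% of all genes tested.

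The calls of saga and arr3a ended under the most alternatives. The saga call ended without GO replicate 1, GO replicate 2 or CK replicate 2 (edgeR adjusted p = 0.10, 0.20 and 0.49), and the arr3a call without GO replicate 1 or CK replicate 1 (edgeR adjusted p = 0.092 and 0.060). Both also ended with DESeq2 in place of edgeR (adjusted p = 0.32 for saga and 0.089 for arr3a) and without scaling factors (edgeR adjusted p = 0.11 and 0.21). With limma on log2(FPKM + 1), gnat2, pde6c and pde6h passed (adjusted p = 0.033, 0.048 and 0.0093), and the calls of gnb3b, gnat1, arr3b, saga and arr3a ended (adjusted p = 0.051, 0.10, 0.10, 0.36 and 0.64). With limma on log2(FPKM + 0.1), pde6h alone passed (adjusted p = 0.025), and gnat2, pde6c, gnb3b, arr3b and gnat1 were at adjusted p = 0.056, 0.074, 0.079, 0.13 and 0.14. On log2(TPM + 1), the median difference of all genes was itself 0.18. Relative to it all 10 genes were lower in GO, while relative to 0, pde6b, saga, arr3a and grk7a were not (differences of 0.02, 0.01, 0.11 and 0.14). In that fit gnat2 and pde6h passed (limma adjusted p = 0.042 and 0.011).

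**Figure D2:**
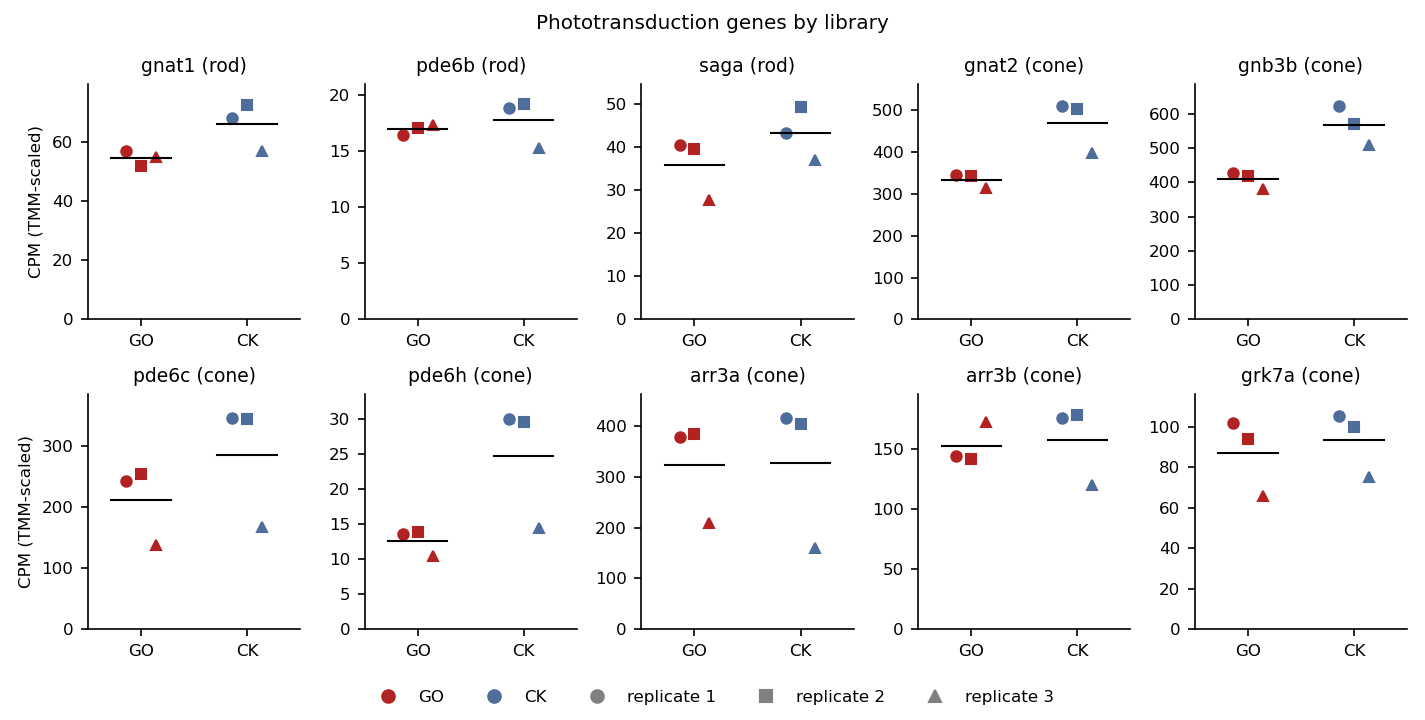
TMM-scaled CPM of each of the 10 genes, each axis starting at 0, with 1 point per library, GO (red) left and CK (blue) right, marker shape for the replicate number, and a line at the group mean. In replicates 1 and 2 every gene but grk7a is lower in both GO libraries than in both CK libraries, and saga, pde6c, arr3a and grk7a are lowest in the 2 replicate 3 libraries.

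Over all 6 libraries no gene passed the test. The edgeR fit of 3 GO against 3 CK libraries called 0 of 19313 genes (0.0%), with 438 genes at an unadjusted p under 0.05, and gave every one of the 10 genes an adjusted p of 0.9999. DESeq2 called 10 genes, none of them among the 10 described here, and limma called 0. The smallest unadjusted edgeR p among the 10 was 0.0064, for gnb3b, which averaged 409 ± 24.3 CPM in GO and 568 ± 56.6 CPM in CK (SD, n = 3 libraries each), a log2 fold change of -0.47 ± 0.12. For gnat2 the means were 334 ± 17.1 CPM in GO and 471 ± 63.5 CPM in CK (log2 fold change -0.49 ± 0.13, edgeR unadjusted p = 0.010), and for pde6h 12.6 ± 1.89 CPM in GO and 24.6 ± 8.88 CPM in CK (log2 fold change -0.97 ± 0.32, edgeR unadjusted p = 0.022). In gnat1, gnat2, gnb3b and pde6h all 3 GO libraries lay below all 3 CK libraries. Such a separation, GO lower, was seen in 4.09% of all genes tested. The reverse was seen in none of the 10 genes and in 3.67% of all genes.

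Because replicate 3 stood apart, GO and CK were set against each other within each replicate number. The labels give the number only, and nothing else ties the libraries of replicates 1 and 2 into pairs. For all genes, the share below 0 was counted in replicate 3 and in all 3 pairs together, not in replicate 1 or 2 alone. The log2 CPM difference was below 0 for 10 of the 10 genes in replicate 1, with a median of -0.27, and for 10 of 10 in replicate 2, with a median of -0.38. In replicate 3 it was below 0 for 7 of 10, with a median of -0.23, where 50.9% of all genes were below 0. The median over all genes was between -0.01 and 0.00 in each pair. The 7 genes that were lower in GO in all 3 pairs were gnat1, saga, gnat2, gnb3b, pde6c, pde6h and grk7a, and 19.6% of all genes did the same.

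In the steadiest of these, gnb3b, GO minus CK was -0.55, -0.45 and -0.42 in pairs 1, 2 and 3, and in gnat2 it was -0.56, -0.55 and -0.34. Of the 10, 3 genes turned round in replicate 3. For arr3b the third pair had 173 CPM in GO, against 120 CPM in CK, a difference of 0.52 after -0.28 and -0.33 in pairs 1 and 2. For arr3a it had 210 CPM in GO, against 159 CPM in CK, a difference of 0.40 after -0.14 and -0.08. For the rod gene pde6b it had 17.3 CPM in GO, against 15.2 CPM in CK, a difference of 0.18.

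**Figure D3:**
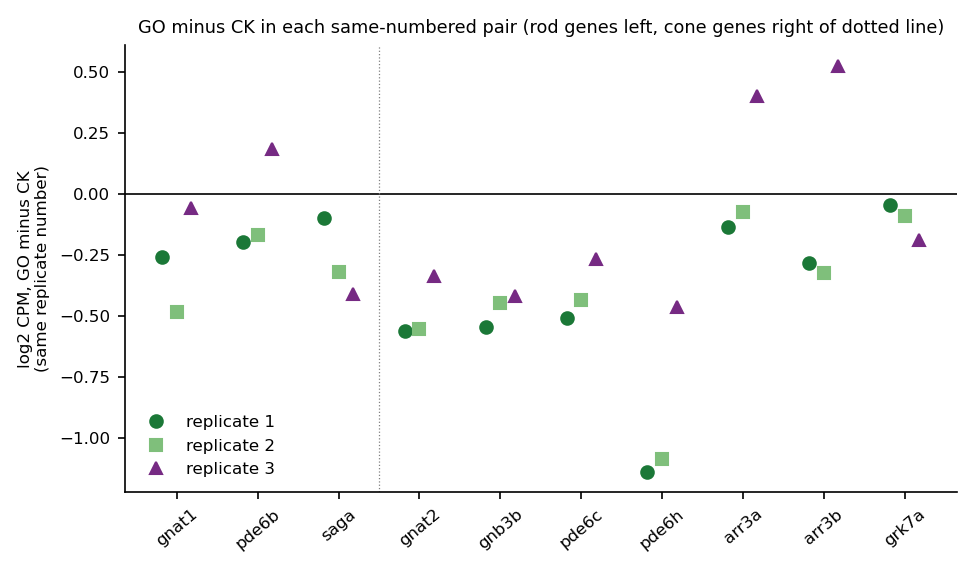
Log2 CPM difference, GO minus CK, within each replicate number, for the 3 rod genes left of the dotted line and the 7 cone genes right of it, with 1 point per pair and no error bars, since each point is 1 library against 1. All points of pairs 1 and 2 lie below 0, and in pair 3 pde6b, arr3a and arr3b lie above it, at 0.18, 0.40 and 0.52.

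Whether the GO effect in replicate 3 differed from that in replicates 1 and 2 was tested as an interaction over the 6 libraries. The median estimate was 0.32 over the 3 rod genes and 0.22 over the 7 cone genes, against -0.01 over all genes. The rod gene saga, at -0.19 ± 0.15, and the cone gene grk7a, at -0.12 ± 0.10, went the other way. The cone gene gnb3b was at 0.08 ± 0.05, and saga, grk7a and gnb3b were not called. For the rod gene pde6b the estimate was 0.37 ± 0.22 and was not called. The difference was called for 4 of the 10 genes, all cone genes and all higher in replicate 3, against 6.63% of all genes called higher and 7.59% called lower. It was 0.83 ± 0.08 on the log2 scale for arr3b (edgeR adjusted p = 1.1e-19) and 0.51 ± 0.06 for arr3a (edgeR adjusted p = 1.4e-12). In these the sign of the GO effect turned. It was smaller for gnat2, at 0.22 ± 0.05 (edgeR adjusted p = 0.00053), and for pde6c, at 0.20 ± 0.07 (edgeR adjusted p = 0.027), where GO stayed lower in every pair but by less in replicate 3. The estimate for pde6h, 0.65 ± 0.24, fell just short (edgeR adjusted p = 0.050), as did that for gnat1, 0.32 ± 0.12 (edgeR adjusted p = 0.060).

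This test rests on 1 library a group in replicate 3, which are assumed to vary like the others. The pde6c call ended without GO replicate 1 (edgeR adjusted p = 0.14), and the calls of pde6c and gnat2 ended with DESeq2 (adjusted p = 0.57 and 0.12). Without scaling factors the pde6c call also ended (0.15, edgeR adjusted p = 0.15), and with RLE scaling pde6h passed (0.65, edgeR adjusted p = 0.048). Without GO replicate 1 or CK replicate 1, gnat1 passed (edgeR adjusted p = 0.038 and 0.035), and without CK replicate 2, gnb3b did (edgeR adjusted p = 0.048).

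Replicate 3 was then compared with replicates 1 and 2, with group as a covariate. Of the 10 genes, 7 were lower in replicate 3 and none was higher, while 55.9% of all 19313 genes were called, 27.0% as lower and 28.8% as higher. The median log2 fold change was -0.33 over the 10 genes, -0.15 over the rod genes and -0.51 over the cone genes, against 0.00 over all genes.

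The largest fall was in arr3a, which was at 210 and 159 CPM in replicate 3 of GO and CK, against 377 to 415 CPM in the 4 libraries of replicates 1 and 2, a log2 fold change of -1.10 ± 0.11 (edgeR adjusted p = 6.2e-05). Next was pde6c, with 138 and 166 CPM in the replicate 3 libraries, against 243 to 345 CPM in replicates 1 and 2 (-0.95 ± 0.07, edgeR adjusted p = 1.3e-05). For pde6h the values were 10.4 and 14.4 CPM in replicate 3, against 13.5 to 30.0 CPM in replicates 1 and 2 (-0.75 ± 0.15, edgeR adjusted p = 0.0032). These sets overlap, and without CK replicate 3 the pde6h difference was -0.39 with an edgeR adjusted p of 0.051.

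The kinase gene grk7a, which hardly differed between GO and CK, stood at 65.7 and 75.1 CPM in the replicate 3 libraries, against 93.7 to 105 CPM in replicates 1 and 2 (-0.51 ± 0.07, edgeR adjusted p = 0.00042). The rod arrestin gene saga stood at 27.7 and 36.9 CPM in the replicate 3 libraries, against 39.5 to 49.3 CPM in replicates 1 and 2 (-0.42 ± 0.09, edgeR adjusted p = 0.0037). In saga, pde6c, arr3a and grk7a both replicate 3 libraries lay below all the others, as in 31.2% of all genes tested. The transducin genes moved little by comparison, gnat2 by -0.24 ± 0.07 (edgeR adjusted p = 0.014) and gnb3b by -0.19 ± 0.06 (edgeR adjusted p = 0.027). The gnat2 call ended without CK replicate 1 or CK replicate 2 (edgeR adjusted p = 0.055 and 0.053), and the gnb3b call without any 1 of the 4 libraries of replicates 1 and 2 (edgeR adjusted p between 0.050 and 0.098). Both also ended in the limma fits on FPKM and TPM (adjusted p between 0.062 and 0.19).

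The remaining genes, gnat1 (-0.15 ± 0.09), pde6b (-0.13 ± 0.12) and arr3b (-0.13 ± 0.16), did not pass (edgeR adjusted p = 0.20, 0.36 and 0.51), and for these the groups disagreed. In arr3b, replicate 3 minus the mean of replicates 1 and 2 was 0.27 in GO and -0.56 in CK. In gnat1 it was 0.01 in GO and -0.30 in CK, and in pde6b 0.05 in GO and -0.32 in CK. Accordingly, leaving out CK replicate 3 turned the 3 estimates positive, to 0.27 for arr3b (edgeR adjusted p = 2.7e-06), 0.01 for gnat1 (edgeR adjusted p = 0.91) and 0.05 for pde6b (edgeR adjusted p = 0.82). Leaving out GO replicate 3 instead made arr3b and gnat1 pass as lower, at -0.56 and -0.31 (edgeR adjusted p = 2.9e-19 and 0.00068). In each of these fits replicate 3 is a single library, so the p-values rest on the spread between replicates 1 and 2 alone (common dispersion 0.00072, against 0.0096 with both replicate 3 libraries) and do not cover the spread between replicate 3 libraries. The same holds for pde6h without CK replicate 3.

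The balance between the cone arrestin genes moved with these differences. The TPM ratio of arr3b to arr3a was 0.832 and 0.763 in replicate 3 of GO and CK, against 0.374 to 0.446 in the 4 libraries of replicates 1 and 2. The ratio of pde6c to gnat2 was 0.187 and 0.178 in replicate 3 of GO and CK, against 0.289 to 0.316 in replicates 1 and 2. Within each replicate number the pde6c to gnat2 ratio was higher in GO, at 0.300, 0.316 and 0.187 in pairs 1, 2 and 3, against 0.289, 0.291 and 0.178 in CK. The arr3b to arr3a ratio was lower in GO in pairs 1 and 2, at 0.387 and 0.374, against 0.428 and 0.446 in CK, and higher in pair 3.

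The gene arr3a is the only 1 of the 10 that the tables give on more than 1 row, and its 2 rows changed their shares with replicate 3. Row 1 held 60.3% and 62.0% of the arr3a counts in replicate 3 of GO and CK, against 38.1% and 37.1% in GO replicates 1 and 2 and 37.9% and 36.3% in CK replicates 1 and 2. In CPM, row 1 was at 127 and 98.6 in replicate 3 of GO and CK, against 142 to 157 in replicates 1 and 2, and row 2 was at 83.3 and 60.5, against 234 to 258. As the counts were assigned, the fall of arr3a in replicate 3 was thus carried mainly by row 2. The row counts were not whole numbers although their sum was, and how reads shared by the rows were divided is not given.

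Such shifts were common in replicate 3. Among 2543 gene IDs on several rows with at least 100 counts in every library, the share of a row moved by more than 20 percentage points in 28.2% to 28.5% of the IDs between a replicate 3 library and a replicate 1 or 2 library of its group. Between replicates 1 and 2 of a group this was 1.18% to 1.26%, and between GO and CK of the same number 1.85% to 3.42%. The transducin genes gnb3a and gngt2a, picked for display after their values were seen, also changed their split with replicate 3, in opposite directions. Row 1 of gnb3a held 6.22% and 3.17% in replicate 3 of GO and CK, against 43.9% to 48.4% in replicates 1 and 2. For gngt2a row 1 held 51.8% and 54.8%, against 0.0%. The rows carry no transcript name, so what separates them was not tested.

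**Figure D4:**
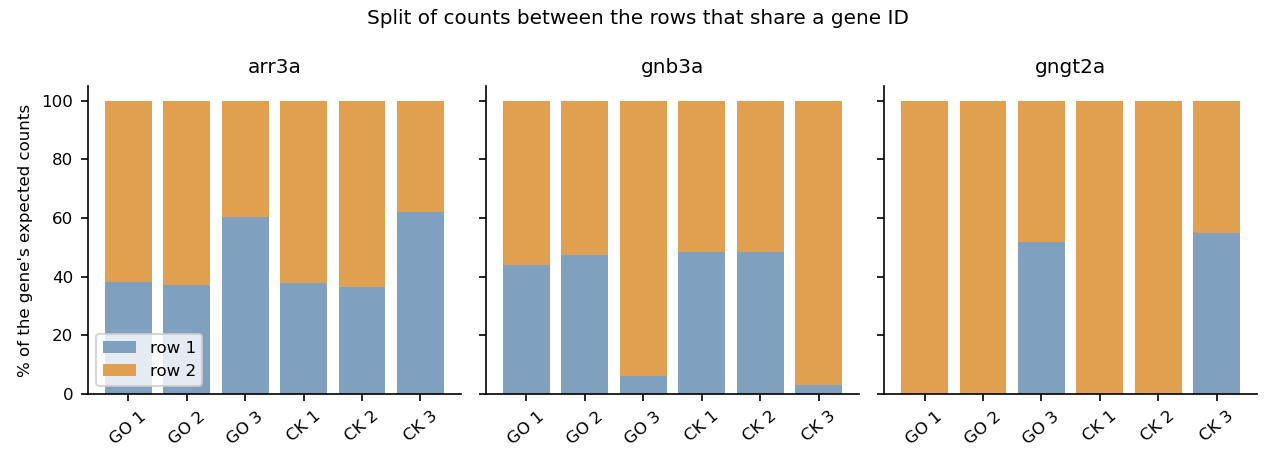
Share of a gene's expected counts, in percent, on row 1 (blue) and row 2 (orange) of the tables in each of the 6 libraries, GO left and CK right, for arr3a and for the related genes gnb3a and gngt2a; no error bars are drawn. The split is alike in replicates 1 and 2 of GO and CK and differs in replicate 3 of both, as for arr3a with 60.3% and 62.0% on row 1 against 36.3% to 38.1%.

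Other genes of the pathway were counted in the same comparisons. Over all 6 libraries none of the genes in the lists below was called, as no gene was, and the median log2 fold change of GO over CK was -0.36 for the opsins, -0.34 for the further cone genes, -0.15 for the further rod genes and -0.22 for the genes shared by rods and cones. Among 10 opsin genes, 7 could be tested. In replicates 1 and 2, 5 were lower in GO and none was higher, beside 12.0% and 12.9% of all genes, and their median log2 fold change was -0.28. The rod opsin gene rho was at 764 and 771 CPM in GO, against 901 and 956 CPM in CK (log2 fold change -0.28, edgeR adjusted p = 6.6e-26). The ultraviolet cone opsin gene opn1sw1 was at 1500.3 and 1489 CPM in GO, against 1928 and 1914 CPM in CK (-0.36, edgeR adjusted p = 4.4e-54). For every 100 opsin counts the 10 cascade genes had 38.8, 39.1 and 40.3 counts in GO, against 41.1, 39.9 and 35.3 in CK. In replicates 1 and 2 the GO values lay below the CK values, and in replicate 3 the GO value lay above that of CK.

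Of 15 further cone genes, 9 were lower and 2 higher in GO in replicates 1 and 2, beside 12.0% and 12.9% of all genes, and the median log2 fold change was -0.41. The share that was higher was thus near that of all genes. The most abundant was gngt2b, the gene of a cone transducin gamma subunit, which partners gnat2 and gnb3b. It was at 563 and 559 CPM in GO, against 995 and 1019.7 CPM in CK (-0.84 ± 0.02, edgeR adjusted p = 3.3e-115), and at 441 CPM in GO and 543 CPM in CK in replicate 3. The second transducin beta gene gnb3a fell less (-0.21 ± 0.04, edgeR adjusted p = 4.8e-05), and the recoverin genes rcvrn3 and rcvrn2, which encode calcium sensors that restrain opsin kinase, changed by -0.45 and -0.11 (edgeR adjusted p = 2.8e-38 and 0.021). The 2 that were higher, named to account for the count after their values were seen, were the exchanger gene slc24a2 (0.41 ± 0.09, edgeR adjusted p = 0.00013) and guca1c (0.54 ± 0.14, edgeR adjusted p = 0.0013), which encodes an activator of guanylate cyclase.

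Of 13 further rod genes, 2 were lower and none higher, a share near the 12.0% of all genes called lower, with a median of -0.16. The rod transducin gamma gene gngt1 was at 42.9 and 40.3 CPM in GO, against 67.3 and 65.1 CPM in CK (-0.67 ± 0.07, edgeR adjusted p = 1.7e-16), and rcvrna was lower by 0.26 ± 0.08 (edgeR adjusted p = 0.0089). The channel gene cngb1a (-0.16) and pde6g (-0.12), which encodes an inhibitory subunit of phosphodiesterase, did not pass (edgeR adjusted p = 0.21 and 0.40). Of 14 genes shared by rods and cones, 6 were lower and none higher, beside the same shares of all genes, with a median of -0.19. These included the disc-rim structural genes prph2b (-0.53) and prph2a (-0.41) and, with smaller changes, phosducin pdcb (-0.20) and the guanylate cyclase gene gc3 (-0.15), with edgeR adjusted p-values of 2.7e-29, 2.6e-15, 0.00029 and 0.020. On log2(TPM + 1), relative to the all-gene median of 0.18, the medians were -0.24 for the opsins, -0.32 for the further cone genes and -0.16 each for the further rod and the shared genes. Relative to 0, those of the further rod and shared genes turned to 0.03 and 0.02.

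Against replicates 1 and 2, replicate 3 had 5 of the 7 tested opsin genes lower (median -0.57 on the log2 scale) and none higher, 9 of the 15 further cone genes lower and 2 higher, 7 of the 13 further rod genes lower and 2 higher, and 9 of the 14 shared genes lower and 1 higher, beside 27.0% of all genes called lower and 28.8% called higher. The largest change among the genes named by abundance was in gnb3a, at 56.5 and 66.4 CPM in replicate 3 of GO and CK, against 135 to 164 CPM in replicates 1 and 2 (-1.28 ± 0.07, edgeR adjusted p = 2.6e-06). The recoverin gene rcvrn3 was at 200.3 and 199.7 CPM, against 345 to 481 CPM (-1.02 ± 0.10, edgeR adjusted p = 5.9e-05). Per 100 cone opsin counts, the 7 cone genes of the cascade had 43.7, 44.3 and 44.9 counts in GO, against 46.2, 45.0 and 37.8 counts in CK, with CK replicate 3 the lowest. Per 100 counts of rho, the 3 rod genes of the cascade had 14.9, 14.1 and 17.6 counts in GO, against 14.4, 14.7 and 19.2 counts in CK, with replicate 3 the highest in both groups. The rod opsin gene rho itself was at 568 and 567 CPM in replicate 3 of GO and CK, against 764 to 956 CPM in replicates 1 and 2 (-0.57 ± 0.07, edgeR adjusted p = 0.00028).

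Regulators and supply genes were counted in the same way. Of 15 photoreceptor transcription factor genes, 3 were lower and 2 higher in GO in replicates 1 and 2, with a median of -0.12, near the 12.0% and 12.9% of all genes. In replicate 3, 14 were lower, with a median of -0.91, beside 27.0% of all genes. The most abundant, neurod1, was lower in GO by 0.29 ± 0.03 (edgeR adjusted p = 2.9e-14) and lower in replicate 3 by 0.50 ± 0.07 (edgeR adjusted p = 0.00035). The homeobox gene crx, which drives photoreceptor genes, was at 66.2 and 72.3 CPM in replicate 3 of GO and CK, against 185 to 207 CPM in replicates 1 and 2 (-1.50 ± 0.06, edgeR adjusted p = 9.3e-07). In the GO comparison it changed by -0.12 ± 0.04 (edgeR adjusted p = 0.015). The related gene otx5 was higher in GO (0.18 ± 0.07, edgeR adjusted p = 0.026) and lower in replicate 3 (-0.94 ± 0.09, edgeR adjusted p = 5.3e-05), while tbx2b, at -0.04, did not pass for GO (edgeR adjusted p = 0.71) and was lower in replicate 3 (-0.54 ± 0.07, edgeR adjusted p = 0.00033). Of 16 visual cycle genes, which regenerate the chromophore, 5 were lower and 2 higher in GO, beside 12.0% and 12.9% of all genes, among them irbp (-0.21) lower and rpe65a (0.36) and stra6 (0.44) higher (edgeR adjusted p = 3.1e-06, 2.0e-23 and 5.6e-06). In replicate 3, 6 of the 16 were lower and 4 higher, with a median of -0.05, beside 27.0% and 28.8% of all genes.

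**Figure D5:**
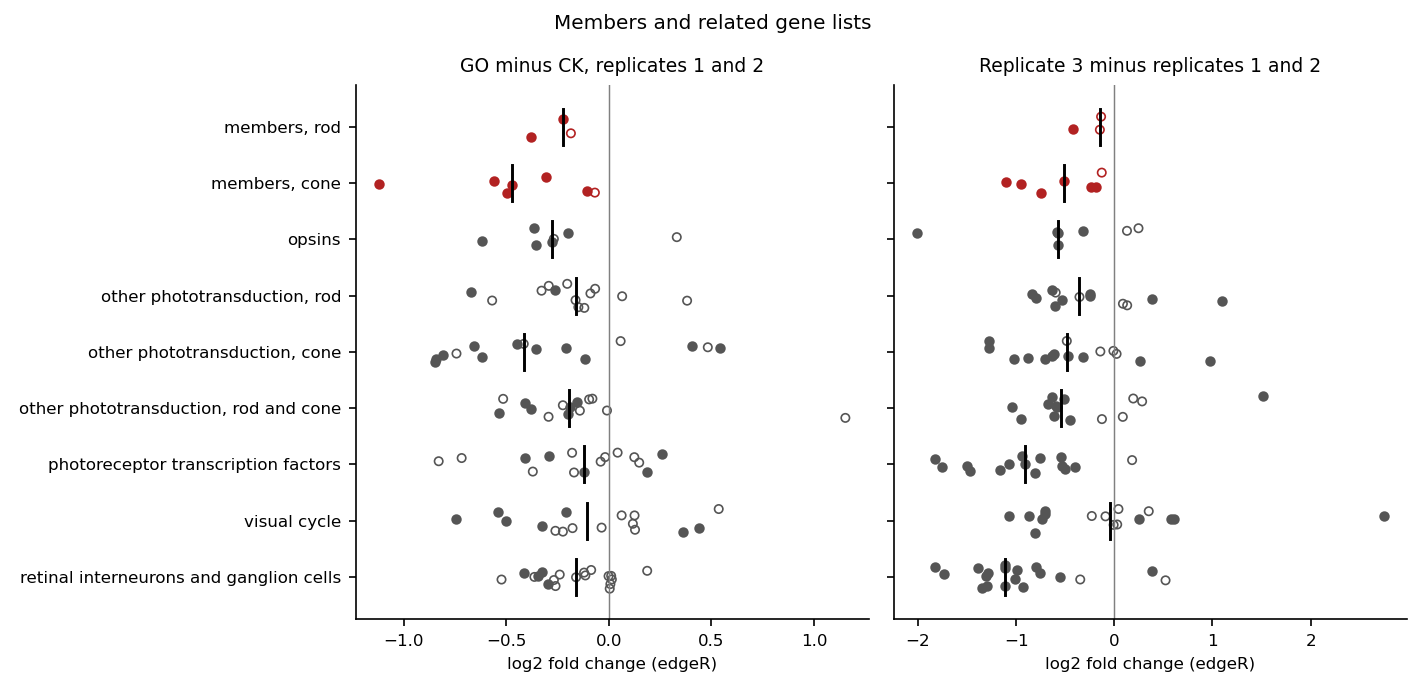
Log2 fold change (edgeR) of each tested gene of the cascade (red, rod and cone) and of related gene lists (grey), with GO minus CK in replicates 1 and 2 on the left and replicate 3 minus replicates 1 and 2 on the right; filled points passed an adjusted p of 0.05, open points did not, and bars mark list medians. Cone lists have their medians lowest on the left (-0.47 and -0.41), while transcription factors and retinal interneurons have theirs lowest on the right (-0.91 and -1.11).

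Markers of other eye, brain and body cells were read beside these values, and their part in the results was not tested. The shares of all genes called lower and higher were 12.0% and 12.9% in the GO comparison and 27.0% and 28.8% in the replicate 3 comparison. Of 19 retinal interneuron and ganglion cell genes, 4 were lower and none higher in GO in replicates 1 and 2 (summed 799 to 804 CPM in GO, against 876 to 919 CPM in CK), and 16 were lower and 1 higher in replicate 3 (summed 404 to 455 CPM). Of 22 lens genes, 18 were higher and none lower in GO in replicates 1 and 2 (summed 4934 to 5014 CPM in GO, against 3380 to 3412 CPM in CK). In replicate 3 the lens genes summed to 3449 CPM in GO and 3902 CPM in CK. Of 10 pigment epithelium and pigment cell genes, 6 were higher and none lower in GO, and of 7 Müller glia genes, 3 were higher and 1 lower. Over all 6 libraries none of these genes was called, with medians of -0.23 for the interneuron and ganglion cell genes, 0.32 for the lens genes and 0.12 for the pigment genes.

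The most abundant pineal gene, rgs20, was at 10.8 to 20.8 CPM and the pineal opsin gene exorh at 3.9 to 9.9 CPM over the 6 libraries, and of 7 tested genes 1 was higher and none lower in GO. Of 14 neural genes, 7 were lower and 1 higher in GO, and 12 were lower and 1 higher in replicate 3. Of 16 skeletal muscle genes, 15 were lower in GO and 14 in replicate 3, and of 17 tested hepatocyte genes, 14 were lower in GO and 17 higher in replicate 3. Photoreceptor genes are under daily control, and of 28 circadian clock genes, 19 were higher and 1 lower in GO in replicates 1 and 2, with a median of 0.59. In replicate 3, 15 clock genes were higher. Among the most abundant clock genes in the GO comparison were nr1d2b (1.00), nr1d2a (0.86) and nfil3-5 (0.36) as higher and cry1ba (-0.46) as lower.

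Finally, the genes whose log2 CPM over the 6 libraries ran most like the mean of the 7 cone genes were abhd10b, lrata, s100t, nfixb and nek1, with Pearson's r between 0.997 and 0.999. The visual cycle gene lrata, for example, was at 11.0, 10.7 and 7.85 CPM in GO, against 16.3, 15.4 and 8.30 CPM in CK. Those most like the mean of the 3 rod genes were pin4, znf292a, mrpl18, map3k10 and rgs3a, with r between 0.991 and 0.994. Of 10907 candidate genes, 354 had an r above 0.95 with the cone mean and 125 with the rod mean. These are descriptions over 6 libraries that share the split of replicate 3.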

How the data were processed

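Each of the 6 libraries had 1 table of 43106 rows. In the deposited files the expected counts need not be whole numbers. TPM and FPKM, normalized for length and depth, were also deposited, per the file headers. Per the submitters' processing notes, Bowtie2 2.3.2 and GRCz11 were used. The counting program is not given in the sources used here, nor is its handling of strand, so reads shared by close paralogs could be divided between them. Rows were summed by gene ID. Counts were whole for 9 of the 10 genes and not for pde6h. The members and gene lists were chosen with earlier results of these data known.

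Counts were rounded and tested with edgeR 4.0.16 (TMM, quasi-likelihood, prior count 2 for printed log2 values) in R 4.3.3, over 19313 genes with a mean FPKM of at least 1 (19289 in replicates 1 and 2), with Benjamini-Hochberg adjustment and a threshold of 0.05. Alternatives used DESeq2 1.42.0, limma 3.58.1 on log2(FPKM + 1), log2(FPKM + 0.1) or log2(TPM + 1), other scaling or no filter, a replicate block, and each library left out. The fitting was tested on simulated data. Same-numbered GO and CK libraries deviated together from their group means (correlations 0.73, 0.75 and 0.87, all over the limit of 0.1). Replicate 3 stood apart in both groups, which alone raises these correlations, so they cannot show that replicates 1 and 2 match by number. Spearman's rho of GO replicate 1 was 0.9788 with CK replicate 1 and 0.9794 with CK replicate 2. For GO replicate 2 it was 0.9787 and 0.9796. The labels give the number only, and the pairs were formed by it. The blocked fit of the 6 libraries also called 0 genes (2793 at an unadjusted p under 0.05).

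All 10 members are named. Genes named from the other lists are among the 4 highest of their list in mean CPM, and from the opsins rho and the highest cone opsin gene. Exceptions are fabp10a and hp of the hepatocyte list, and slc24a2, guca1c and gngt2a of the further cone genes. For likeness the 5 genes with the highest Pearson's r are named, among tested genes outside the 10 with a mean of at least 10 CPM. Genes without a symbol, or with a provisional one (such as LOC, si:, zgc: or -like names), were left out of this ranking. List names were found by symbol or by synonym in a RefSeq gene table of another assembly, which matched 30570 gene IDs and was used for names only. Positions and sequences were not used here. In each library 3 counts, which a count of 0 allows, correspond to 0.231 to 0.308 CPM.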

Additional observations from a re-analysis of the deposited data

Results flagged for a closer look

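The GO effect differed between replicate 3 and replicates 1 and 2 in 4 of the 10 genes, by a test of that difference, which called 6.63% of all genes higher and 7.59% lower. It was higher in replicate 3 by 0.83 for arr3b, 0.51 for arr3a, 0.22 for gnat2 and 0.20 for pde6c on the log2 scale (edgeR adjusted p = 1.1e-19, 1.4e-12, 0.00053 and 0.027). This is the signed GO minus CK difference, so a higher value does not mean a larger fall. In gnat2 and pde6c GO stayed lower in every pair but by less in replicate 3. In arr3b and arr3a the sign turned, with GO above CK in replicate 3. Replicate 3 has 1 library in each group, assumed to vary like the others. With DESeq2 the calls of gnat2 and pde6c ended (adjusted p = 0.12 and 0.57), and that of pde6c also ended without GO replicate 1 and without scaling factors (edgeR adjusted p = 0.14 and 0.15). Lens genes moved the other way in the same test, with 19 of 22 lower, and 14 of 17 hepatocyte genes were higher, beside the same shares of all genes.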

How the results depend on the processing

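Replicate 3 had 1 library per group, and with 2 or 3 libraries a group the spread is poorly known. The GO against CK call over 6 libraries was 0 genes in all settings but DESeq2 (10). In replicates 1 and 2 the count of 4812 genes became 2042 with DESeq2, 1251 with limma on log2(FPKM + 1), 657 with limma on log2(FPKM + 0.1), and 3013 to 3855 with 1 library left out (3013 without GO replicate 2). Of the 8 members called, limma called 3, 1 and 2 on log2(FPKM + 1), log2(FPKM + 0.1) and log2(TPM + 1). The share of higher genes among those called was 51.8%, but 66.5% without scaling factors, and 69.9%, 70.8% and 90.1% in the 3 limma fits. For the difference of the GO effect between replicate 3 and the others, 2746 genes became 754 with DESeq2 and 1729 to 2594 with 1 library left out, lowest without GO replicate 2, and DESeq2 called 2 of the 4 members. The share of higher calls there was 46.6%, and 34.9% without scaling factors. The replicate block, which fits the replicate number, gave 4893 genes and the same 8 member calls in replicates 1 and 2, and changed no other call. It turned arr3a over 6 libraries to 0.060. Other estimates over 6 libraries, none past the threshold, also changed sign. For arr3a these were 0.034 without scaling factors, 0.092 and 0.093 with limma on log2(FPKM + 1) and log2(FPKM + 0.1), and -0.34 to 0.22 with 1 library left out (above 0 without GO replicate 3, CK replicate 1 or CK replicate 2). For arr3b they were 0.0020 and 0.0022 with limma on the same 2 scales and -0.21 to 0.051 with 1 library left out (above 0 without GO replicate 2, CK replicate 1 or CK replicate 2). For grk7a they were -0.24 to 0.067 with 1 library left out (above 0 without GO replicate 3). The fit on TPM was chosen after seeing the data. In it arr3a, arr3b, grk7a and pde6b were at 0.21, 0.12, 0.045 and 0.073 over 6 libraries, where the median of all genes was 0.13, and arr3a, grk7a, pde6b and saga at 0.11, 0.14, 0.024 and 0.0060 in replicates 1 and 2. With 1 library left out of the replicate 3 comparison, arr3b ranged from -0.56 to 0.27, gnat1 from -0.31 to 0.013 and pde6b from -0.32 to 0.048, above 0 only without CK replicate 3 in each. The cause was not tested. The interaction was not fitted with limma or without a replicate 3 library.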

Other observations

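In replicates 1 and 2 the GO against CK difference of all genes moved with effective length. The median log2 fold change was -0.27 under 500 bases, -0.11 from 500 to 1000 bases, -0.02 from 1000 to 2000 bases, 0.03 from 2000 to 4000 bases and 0.04 above. Each of the 10 cascade genes lay below the median of its own length class, by 0.08 (arr3a) to 0.85 (pde6h) on the log2 scale.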
